A study of Homo sapiens with 23 samples.

Results

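GFP-positive HEK293T cells were compared with GFP-negative cells sorted from the same cultures at 8 h after polyplexes had been added. The comparison holds 3 arrays of each population, 6 of the 23 arrays in the series. It was described over every probe set of the array, 41924 with a gene symbol (naming 20146 genes) and 12751 without, so that a gene may be measured by up to 15 probe sets. HEK293T is a line of human embryonic kidney cells in which SV40 large T antigen is expressed. The polyplexes were particles of branched polyethylenimine (bPEI), a cationic polymer, and the plasmid pEGFP-LUC, a reporter plasmid for green fluorescent protein (GFP) and luciferase. GFP-positive cells at 8 h (labelled transfected, 3 arrays) and GFP-negative cells at 8 h (labelled untransfected, 3 arrays) had both been exposed to polyplexes and passed through the flow sorter. GFP-negative cells are therefore not untreated cells, and no untreated arrays of 8 h were used. The same populations at 16 h (3 arrays each), and cells treated (3 arrays) and untreated (2 arrays) at 2 h, shared the estimate of the spread. The gate and the purity of the sort are not given in the sources used here. The labels call the arrays biological replicates without stating separate cultures, so the p-values speak only of the spread among these arrays.

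Polyethylenimine carries DNA into cells as positively charged particles that bind heparan sulfate on the cell surface, are taken up by endocytosis and must leave the endosome before the plasmid reaches the nucleus. Entry of plasmid into the nucleus is generally easier when the nuclear envelope is open during mitosis. Cells that receive polymer and foreign DNA are known to engage stress, heat shock and innate immune programmes, and a cell scores as GFP-positive only after it has transcribed and translated the reporter.

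For GFP-positive replicate 3 the labels disagree, with 16 h in the source name and 8 h in the title and description. The array was used as 8 h. Without it, 22 of the 163 probe sets named by rule that passed lost the call, and those described are marked where they appear. Array medians at 8 h lay between 4.66 and 4.71 log2 units, with SDs of 2.31 to 2.33 in GFP-positive arrays and 2.33 to 2.37 in GFP-negative arrays. The 3′ minus 5′ difference of the GAPDH control probe sets, a sign of RNA quality, was 0.335, 0.279 and 0.521 in GFP-positive arrays and 0.294, 0.305 and 0.498 in GFP-negative arrays. That of ACTB was larger, at 1.819, 1.89 and 2.149 in GFP-positive arrays and 1.893, 1.676 and 2.285 in GFP-negative arrays. Both were highest in replicate 3 of each population. Of the HEK293 marker genes, NEFL and ENO2 fell in GFP-positive cells (log2 -0.50 and -0.71). Of the 6 haematopoietic markers, 5 fibroblast markers and 3 endothelial markers, 0 passed the threshold in either direction. The mean log2 level over the haematopoietic markers was nevertheless 4.71 to 4.73 in GFP-positive arrays, above the 4.57 to 4.62 in GFP-negative arrays. The defining leukocyte gene PTPRC read 2.75 to 2.99 in GFP-positive arrays and 2.895 to 3.14 in GFP-negative arrays on its brightest probe set, where the populations overlapped. The part of these markers in the results below was not tested. At an unadjusted p under 0.05 in limma, 2 haematopoietic probe sets were higher and 1 lower, 2 fibroblast ones higher and 2 lower, and 0 endothelial ones higher and 1 lower.

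At 8 h, 3767 probe sets (6.89% of those tested) differed at a Benjamini-Hochberg adjusted p under 0.05 in limma, and more were lower than higher in GFP-positive cells. Of these, 1501 were higher (2.75%) and 2266 were lower (4.14%). The large changes ran the other way: 147 probe sets were at least 2-fold higher (0.269%) and 16 at least 2-fold lower (0.0293%). The 3 arrays of one population lay wholly apart from those of the other for 12847 probe sets (23.5%), with GFP-positive arrays above for 5884 (10.8%) and below for 6963 (12.7%), and for 3714 of the 3767. By gene, 959 of 20146 genes (4.76%) had a higher probe set and 1775 (8.81%) a lower one. In sorted populations, fewer cells that express a gene and less RNA of it per cell cannot be told apart. With quantile normalization of the arrays 1739 probe sets were higher and 1699 lower, and with each array centred on its median 1358 were higher and 2830 lower, so the balance between the directions depends on scaling. Without GFP-positive replicate 3, 2696 probe sets passed, 1030 higher and 1666 lower. The total moved by more than 1.5 times without GFP-positive replicate 2 (2025), GFP-negative replicate 2 (2358) or GFP-negative replicate 3 (2272). It was 1842 when the 6 arrays of 8 h were fitted alone.

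**Figure D1:**
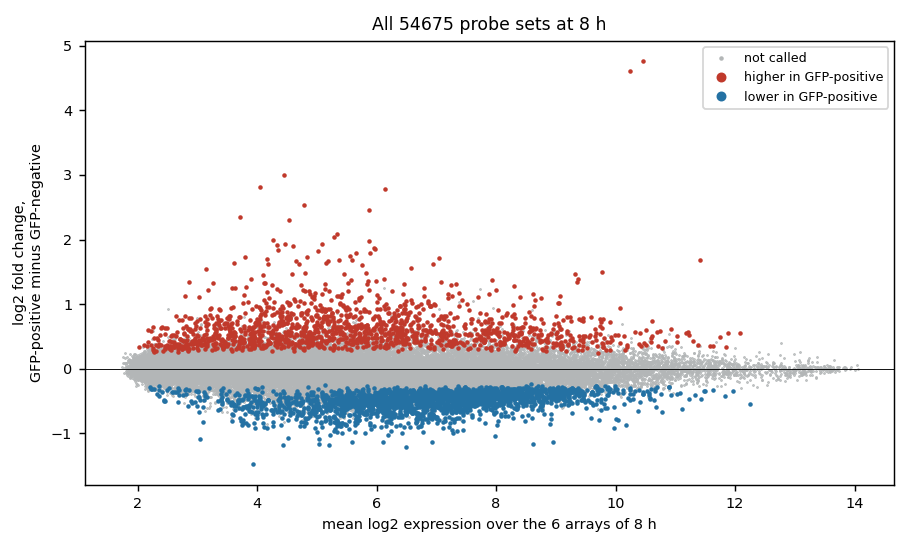
Each point is 1 probe set: its mean log2 expression over the 6 arrays of 8 h (x axis) and its log2 fold change, GFP-positive minus GFP-negative (y axis), with 1501 higher probe sets in red and 2266 lower ones in blue. Higher probe sets spread over all levels and reach the largest changes, while most lower ones lie in the upper part of the level range and within 1 log2 unit of 0.

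The directions differed with level. When probe sets were split by mean level into 5 bins of 10935, 1.06% of the lowest bin were higher and 0.293% lower, whereas 3.23% of the highest bin were higher and 8.29% lower. In the second highest bin 3.89% were higher and 8.77% lower. The gene lists below were not matched for level. The median log2 fold change was 0.02 in the lowest bin and -0.05 in the highest, and after quantile normalization it was within 0.01 of 0 in each bin. Of the probe sets that are the brightest of their gene, 3.15% were higher and 6.16% lower, against 2.21% and 3.92% of those that are not the brightest and 3.03% and 1.34% of those with no symbol. Of the 3767 called, 1875 were the brightest of their gene, 1335 were not, and 557 had no symbol. Among the 147 at least 2-fold higher, 58 were the brightest of their gene, 38 were not and 51 had no symbol.

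The 15 probe sets with the greatest rises included genes typical of muscle, cilia, germ cells and serotonin synthesis. Only passing probe sets without overlap of the populations were eligible, so their separation is not a further result. NEB, which encodes nebulin, the ruler of the thin filament in skeletal muscle, was at 6.03, 5.95 and 6.16 log2 units in GFP-positive arrays and at 3.36, 3.70 and 3.47 in GFP-negative arrays on probe set 205054_at. The populations did not overlap, and NEB rose by log2 2.54 (limma SE 0.15, adjusted p = 1.41e-07). ACTA1, the alpha actin of skeletal muscle, was at 7.37, 7.06 and 6.88 in GFP-positive arrays and at 4.79, 4.48 and 4.68 in GFP-negative arrays. Every GFP-positive array thus stood over 2 log2 units above every GFP-negative one, a rise of log2 2.45 (SE 0.16, adjusted p = 3.1e-07). TPH1, the rate-limiting enzyme of serotonin synthesis outside the brain, was at 4.62, 4.99 and 5.08 in GFP-positive arrays and at 2.41, 2.59 and 2.63 in GFP-negative arrays on 214601_at. It rose by log2 2.35 (SE 0.14, adjusted p = 1.41e-07). DNAI4, a dynein intermediate chain of motile cilia, was at 5.38, 5.41 and 5.60 in GFP-positive arrays and at 2.93, 2.58 and 2.43 in GFP-negative arrays on 1554140_at, a rise of log2 2.81 (SE 0.22, adjusted p = 2.02e-06).

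GCNA, a germ cell gene, was at 7.48, 7.63 and 7.49 log2 units in GFP-positive arrays and at 5.30, 4.14 and 4.82 in GFP-negative arrays. GFP-positive arrays were close together and GFP-negative ones spread over more than 1 log2 unit, without overlap, and GCNA rose by log2 2.78 (adjusted p = 1.8e-05). LRRC23, a gene of the radial spokes of cilia and sperm tails, was at 6.64, 7.07 and 6.86 in GFP-positive arrays and at 4.80, 4.97 and 4.88 in GFP-negative arrays. Its rise of log2 1.97 (SE 0.11) had an adjusted p of 1.41e-07. The remaining largest rises were those of DCAF4L1 (log2 2.09), the antisense RNA gene RBM26-AS1 (2.03), CHORDC1 (2.00 on 239436_at) and the zinc finger gene ZSCAN30 (1.93 on 1557104_at). Probe sets 221200_at, 1565830_at and 241156_at, which carry no gene symbol, rose by log2 2.99, 2.31 and 1.93.

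**Figure D2:**
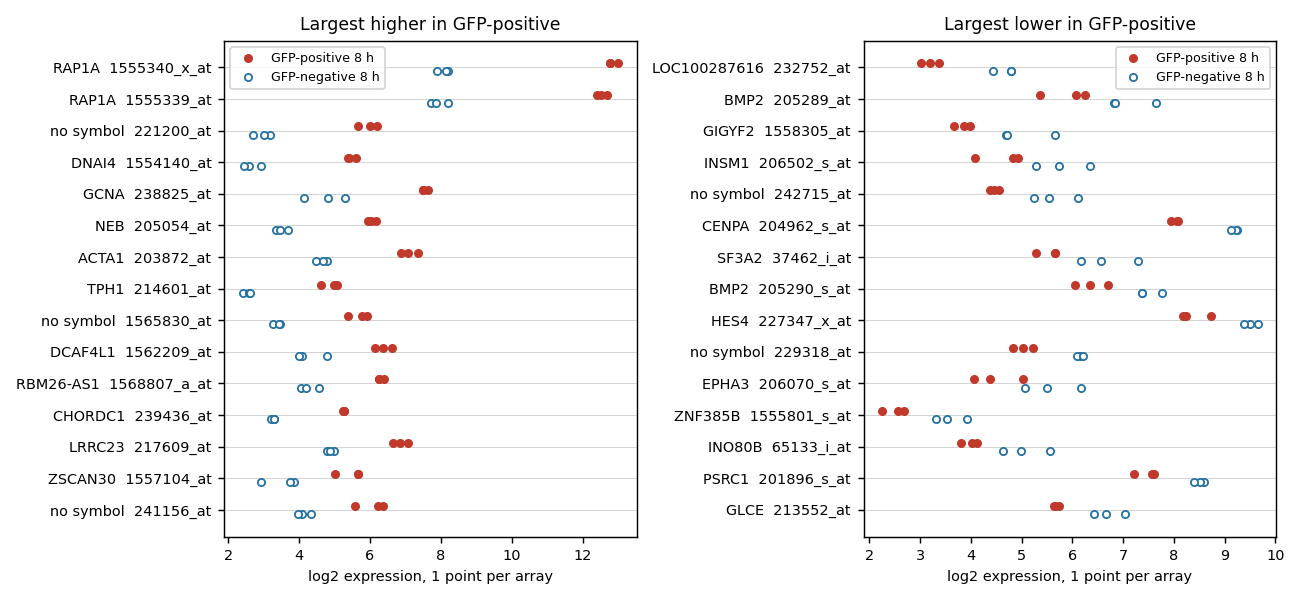
Log2 expression (x axis) of the 15 probe sets with the largest rise (left) and the 15 with the largest fall (right) in each array of 8 h, with filled red points for the 3 GFP-positive arrays and open blue points for the 3 GFP-negative arrays. Only probe sets without overlap of the populations were eligible. The rises reach 4.77 log2 units and the falls -1.48.

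The largest falls, also taken only from passing probe sets without overlap, were smaller and touched developmental regulators and dividing-cell genes. BMP2, a secreted bone morphogenetic protein, was at 6.06, 6.35 and 6.69 log2 units in GFP-positive arrays and at 7.38, 7.76 and 7.37 in GFP-negative arrays on its brighter probe set 205290_s_at. The populations did not overlap, with a log2 difference of -1.13 (SE 0.17, adjusted p = 0.00102), and its second probe set 205289_at fell by 1.21 (SE 0.25, adjusted p = 0.00784). INSM1, a zinc finger factor of neuroendocrine cells, was at 4.84, 4.08 and 4.93 in GFP-positive arrays and at 5.74, 5.29 and 6.36 in GFP-negative arrays, a log2 difference of -1.18 (SE 0.28, adjusted p = 0.0187). The replicate 2 arrays were the lowest of both populations, and the call was lost without GFP-positive replicate 2 or GFP-negative replicate 3. HES4, a transcriptional repressor of the HES family, was at 8.73, 8.24 and 8.18 in GFP-positive arrays and at 9.51, 9.39 and 9.65 in GFP-negative arrays. The populations lay apart by a mean log2 difference of -1.13 (SE 0.17, adjusted p = 0.00076). The ephrin receptor gene EPHA3 stood at -1.09 (adjusted p = 0.0144), a call that was lost in the fit of the 6 arrays alone (adjusted p = 0.0698) and without GFP-positive replicate 2 or GFP-negative replicate 3. LOC100287616 fell by 1.48, a GIGYF2 probe set (1558305_at) by 1.18, the splicing factor gene SF3A2 by 1.14, ZNF385B by 1.09, the chromatin remodelling gene INO80B by 1.08 and 2 probe sets without a symbol, 242715_at and 229318_at, by 1.17 and 1.13.

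Probe sets of the same gene often differed. Of 10842 genes with 2 or more probe sets, 1960 had at least 1 that passed, and 121 of these had every probe set past the threshold in the same direction. In 388 of the 425 genes with 2 or more passing probe sets these went one way, and in 37 genes they went both ways. All probe sets had the same sign of change in 53.5% of the genes with a passing one, against 46.9% of all 10842 genes. Of 56 genes with a probe set at least 2-fold higher and a further probe set, 43 had another that changed by under 0.5 log2 units, and in 32 the 2-fold probe set was not the brightest of its gene.

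RAP1A, which encodes a small GTPase of cell adhesion signalling, had the greatest difference between its probe sets. Probe set 1555340_x_at was at 12.767, 12.997 and 12.762 log2 units in GFP-positive arrays and at 7.895, 8.191 and 8.142 in GFP-negative arrays, the largest change of all (log2 4.77, SE 0.33, adjusted p = 6.42e-07). Probe set 1555339_at rose nearly as much (log2 4.61, SE 0.31, adjusted p = 6.21e-07). The sequences that these probe sets target were not checked here. The other RAP1A probe sets did not follow them. 202362_at was at 10.12, 10.29 and 10.37 in GFP-positive arrays and at 10.16, 9.93 and 10.22 in GFP-negative arrays (log2 0.15, adjusted p = 0.464). 228548_at was at -0.40 (adjusted p = 0.0524, or 0.0399 in the fit blocked on replicate number). On 1555340_x_at the arrays of 2 h, which were normalized apart, read 5.88, 6.51 and 7.58 in treated cells and 3.94 and 3.91 in untreated cells. At 16 h the same probe set read 13.38, 13.42 and 13.55 in GFP-positive arrays and 10.29, 10.42 and 9.11 in GFP-negative arrays.

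CHORDC1, a co-chaperone of HSP90, was at 5.27, 5.27 and 5.25 in GFP-positive arrays and at 3.30, 3.22 and 3.28 in GFP-negative arrays on 239436_at, an increase of log2 2.00 (SE 0.15, adjusted p = 1.1e-06). Its brightest probe set 218566_s_at was at log2 0.03 (adjusted p = 0.926), with overlapping populations. In N4BP2L2, probe set 214748_at rose by log2 1.20 (adjusted p = 0.002), while 202258_s_at, the brightest, and 202259_s_at fell by 0.56 and 0.84 (adjusted p = 0.007 and 0.00027). PCDH7, a protocadherin of cell adhesion, likewise rose on 210941_at (log2 1.25, adjusted p = 0.000762) and fell on 210273_at and 228640_at (log2 -0.65 and -0.83, adjusted p = 0.00636 and 0.00231). On the brightest PCDH7 probe set, 205534_at, the change was 0.24 (adjusted p = 0.173). NEB and TPH1 each had a further probe set that did not pass, at log2 0.31 and 0.16. ZSCAN30 did not pass on its brightest probe set 228125_at (log2 0.20, adjusted p = 0.177), nor on 228130_at (0.17) or 1562988_at (-0.24). It passed on 1557105_a_at (0.41) beside 1557104_at. DNAI4 passed on 1554141_s_at (1.55) and 229816_at (0.81) beside 1554140_at, its brightest. It did not pass on 220769_s_at (0.29, adjusted p = 0.105) or 1559576_at (0.07, adjusted p = 0.737). CDT1, a licensing factor of replication origins, rose on 228868_x_at (log2 0.57, adjusted p = 0.0334) and fell on 209832_s_at (log2 -0.39, adjusted p = 0.0318), and both calls were lost without GFP-positive replicate 3, GFP-negative replicate 2 or GFP-negative replicate 3.

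**Figure D3:**
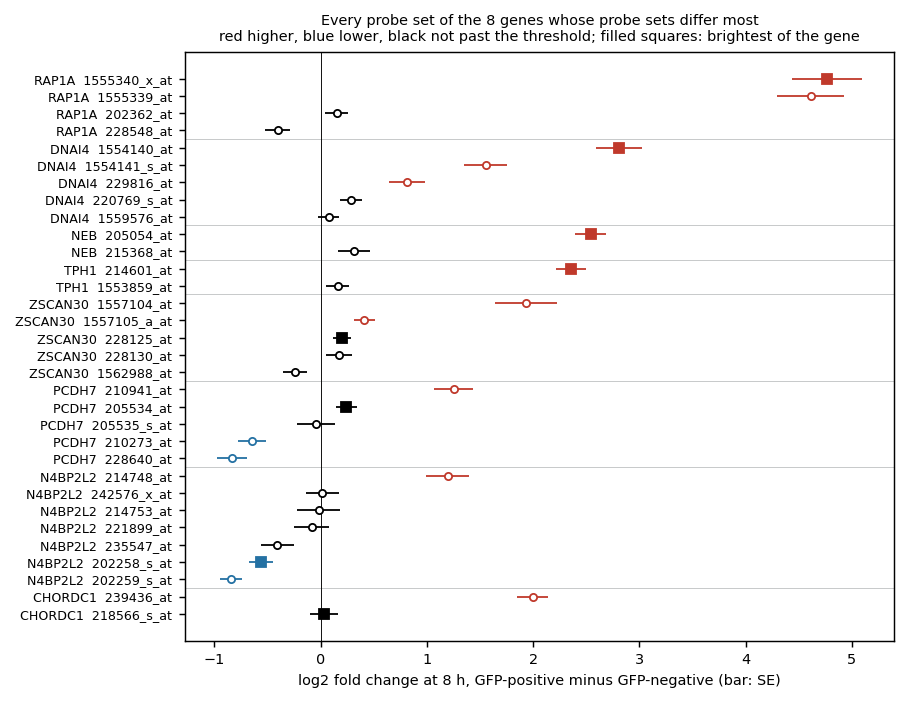
Log2 fold change at 8 h, GFP-positive minus GFP-negative, with its SE (x axis), for every probe set of the 8 genes with the largest difference between a passing probe set and another one. Red points passed as higher, blue as lower and black did not pass, and filled squares mark the brightest probe set of a gene. RAP1A spans -0.40 to 4.77, and N4BP2L2 and PCDH7 have passing probe sets on both sides of 0.

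Genes of mitosis were lower in GFP-positive cells. Of 47 probe sets of mitotic kinases, cyclins and their regulators, 15 fell (31.9%) and 1 rose, against 4.14% and 2.75% of all probe sets. The list's median log2 fold change was -0.24, against 0.00 over all probe sets, and stayed negative with quantile normalization (-0.19) and centring (-0.26). AURKA, a kinase of centrosome maturation and spindle assembly, was at 9.42, 9.52 and 9.58 log2 units in GFP-positive arrays and at 10.37, 10.50 and 10.40 in GFP-negative arrays. Each GFP-positive array was thus below all GFP-negative arrays on 208079_s_at, a log2 difference of -0.92 (SE 0.09, adjusted p = 2.17e-05), and 204092_s_at fell by 0.76 (adjusted p = 0.000263). The remaining AURKA probe set, 208080_at, was at -0.21 (adjusted p = 0.574). CCNB1, cyclin B1 of the mitotic kinase complex, fell by 0.70 (SE 0.10, adjusted p = 0.000646) on 228729_at. Its brightest probe set 214710_s_at fell by 0.31 (adjusted p = 0.0393). That call was lost without any one of 5 of the 6 arrays, among them GFP-positive replicate 3 (adjusted p = 0.0657). AURKB, the kinase of the chromosomal passenger complex, fell on both probe sets listed as passing, by 0.58 (adjusted p = 0.000802) and 0.84 (adjusted p = 0.00103). CDK1, the partner of cyclin B1, fell on 3 probe sets by 0.49 to 0.55. The probe set that rose was of MASTL (log2 0.54, adjusted p = 0.0305), a kinase that restrains the phosphatase opposing CDK1. Without GFP-positive replicate 3, 11 of the 47 fell and 0 rose.

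Centromere, kinetochore and spindle genes shared this direction, with 15 of 85 probe sets lower (17.6%) and 2 higher, or 12 and 1 without GFP-positive replicate 3. CENPA, the histone variant that marks centromeres, was at 8.09, 7.95 and 8.07 in GFP-positive arrays and at 9.24, 9.23 and 9.13 in GFP-negative arrays. The populations were separated by about 1 log2 unit, with a log2 difference for CENPA of -1.17 (SE 0.08, adjusted p = 1.02e-06) on 204962_s_at. CENPA probe set 210821_x_at fell less, by 0.56 (adjusted p = 0.00319). PSRC1, a microtubule-binding protein of the spindle, was at 7.58, 7.22 and 7.61 in GFP-positive arrays and at 8.60, 8.52 and 8.40 in GFP-negative arrays, and fell by 1.04 (SE 0.13, adjusted p = 0.000327). CENPO and KNSTRN, of the kinetochore, fell by 0.74 and 0.67 (adjusted p = 0.000365 and 0.000627). Both probe sets that rose belong to CENPU (log2 0.51 and 0.58), also a kinetochore gene, and 1 of these calls was lost without GFP-positive replicate 3. Of 69 kinesin probe sets 8 fell (11.6%) and 0 rose, and KIF23, which works in cytokinesis, was at 8.15, 8.10 and 8.26 in GFP-positive arrays and at 8.80, 8.74 and 9.14 in GFP-negative arrays (log2 -0.72, SE 0.11, adjusted p = 0.000948). The kinesin count was 4 without GFP-positive replicate 1, GFP-positive replicate 2 or GFP-negative replicate 3, 5 without GFP-positive replicate 3 or GFP-negative replicate 2, 5 with quantile normalization and 3 with the 6 arrays alone. The 44 probe sets of the anaphase-promoting complex and mitotic exit were mixed, with 4 higher and 4 lower (9.09% each). These counts were 1 and 2 without GFP-positive replicate 2, 4 and 2 without GFP-negative replicate 1, 1 and 4 with the 6 arrays alone, and 4 and 7 with the replicate block. UBE2C, its ubiquitin-conjugating enzyme, was at 9.84, 9.74 and 9.61 in GFP-positive arrays and at 10.71, 10.74 and 10.38 in GFP-negative arrays (log2 -0.88, SE 0.10, adjusted p = 9.67e-05). FBXO5, the inhibitor of that complex known as EMI1, rose (log2 0.53, adjusted p = 0.00954, lost without GFP-positive replicate 2), as did ANAPC1 (log2 0.41, adjusted p = 0.00401). PTTG1, the securin, was at 0.21 (adjusted p = 0.188).

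Many mitotic promoters hold a cell cycle genes homology region (TTTGAA or TTCGAA on either strand) with a CCAAT box upstream, the arrangement through which the DREAM and MuvB complexes are known to act. Promoters of 3 genes that fell are printed because each holds both motifs before the start, in capitals (from RefSeq, GRCh38.p14, the 150 bases before the start on the gene's strand). They lie at chr2:26785906-26786055 (CENPA, plus strand), chr1:109283146-109283295 (PSRC1, minus strand) and chr15:69414199-69414348 (KIF23, plus strand).
CENPA: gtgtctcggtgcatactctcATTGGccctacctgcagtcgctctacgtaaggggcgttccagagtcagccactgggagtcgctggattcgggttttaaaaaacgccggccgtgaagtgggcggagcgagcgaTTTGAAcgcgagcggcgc
PSRC1: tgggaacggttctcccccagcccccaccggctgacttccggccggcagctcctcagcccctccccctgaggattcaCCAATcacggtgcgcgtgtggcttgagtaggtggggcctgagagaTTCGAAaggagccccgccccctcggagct
KIF23: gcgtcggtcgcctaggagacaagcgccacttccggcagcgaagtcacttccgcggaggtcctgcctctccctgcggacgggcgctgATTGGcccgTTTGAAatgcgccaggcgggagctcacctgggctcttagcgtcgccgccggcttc
Over windows of 250 bases before to 50 after the start, the homology region was present in 18 of 30 promoters of division genes with a passing lower probe set (60%), in 53 of all 109 promoters of the 4 division lists (48.6%) and in 1851 of 14444 promoters of measured genes (12.8%). A CCAAT box was present in 21 of the 30 (70%), 64 of the 109 (58.7%) and 36.1% of all. By list, the homology region was in 2 of 6 lower and 10 of all 19 promoters of mitotic kinases and cyclins. For centromere, kinetochore and spindle genes these counts were 9 of 13 and 25 of 42. They were 5 of 8 and 12 of 28 for kinesins, and 2 of 3 and 6 of 20 for the anaphase-promoting complex and mitotic exit. MASTL and ANAPC1, which rose, also held it. These matches describe letters in a window and show no binding.

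Of 121 probe sets of S phase entry and replication genes, 11 were higher (9.09%) and 4 lower (3.31%), and the median was -0.01 on the log2 scale. At an unadjusted p under 0.05 in limma, 18 were higher and 14 lower. DTL, the adaptor of a ubiquitin ligase that destroys CDT1 in S phase, was at 10.46, 10.62 and 10.54 log2 units in GFP-positive arrays and at 9.66, 9.32 and 9.83 in GFP-negative arrays. The populations did not overlap, and DTL rose by log2 0.94 (SE 0.12, adjusted p = 0.000292) and on its second probe set by 1.12 (adjusted p = 0.000296). ORC1, of the origin recognition complex, rose by log2 0.60 (adjusted p = 0.00213) and the transcription factor gene E2F2 by 0.39 (adjusted p = 0.00456). With quantile normalization the list's median was 0.02. The count of higher probe sets was 6 without GFP-positive replicate 3 or GFP-negative replicate 2, 7 without GFP-positive replicate 1, 6 with the 6 arrays alone and 3 with all 23 arrays. The count of lower ones was 0 without GFP-positive replicate 3, GFP-negative replicate 2 or GFP-negative replicate 3, 1 without GFP-positive replicate 2, 1 with the 6 arrays alone and 6 with the replicate block. E2F motifs (TTTCGCGC, TTTGGCGC or TTTCCCGC on either strand) were present in 22 of 48 promoters of this list (45.8%) and in 3.87% of all.

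Histone probe sets had the highest share of rises of the 36 lists, with 7 of 38 higher (18.4%) and 1 lower. H3C10, a replication-dependent histone H3 gene, was at 6.14, 6.07 and 6.36 in GFP-positive arrays and at 4.81, 4.59 and 5.20 in GFP-negative arrays. It rose by log2 1.32 (SE 0.15, adjusted p = 0.000105), with no overlap of the populations. H2BC21 and H2BC9, histone H2B genes, rose by log2 1.02 and 0.73 (adjusted p = 0.000327 and 0.000627), and H3-3B, which encodes the replication-independent variant H3.3, by 0.78 (adjusted p = 0.000762). H2AX, the variant phosphorylated at DNA breaks, was the one that fell (log2 -0.39, adjusted p = 0.0252), a call lost without GFP-positive replicate 2, GFP-positive replicate 3, GFP-negative replicate 2 or GFP-negative replicate 3. Histone genes are near-identical in sequence, so single members are uncertain. Leaving out each of the 6 arrays in turn gave 7 rises each time, and the fit of all 23 arrays gave 1.

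**Figure D4:**
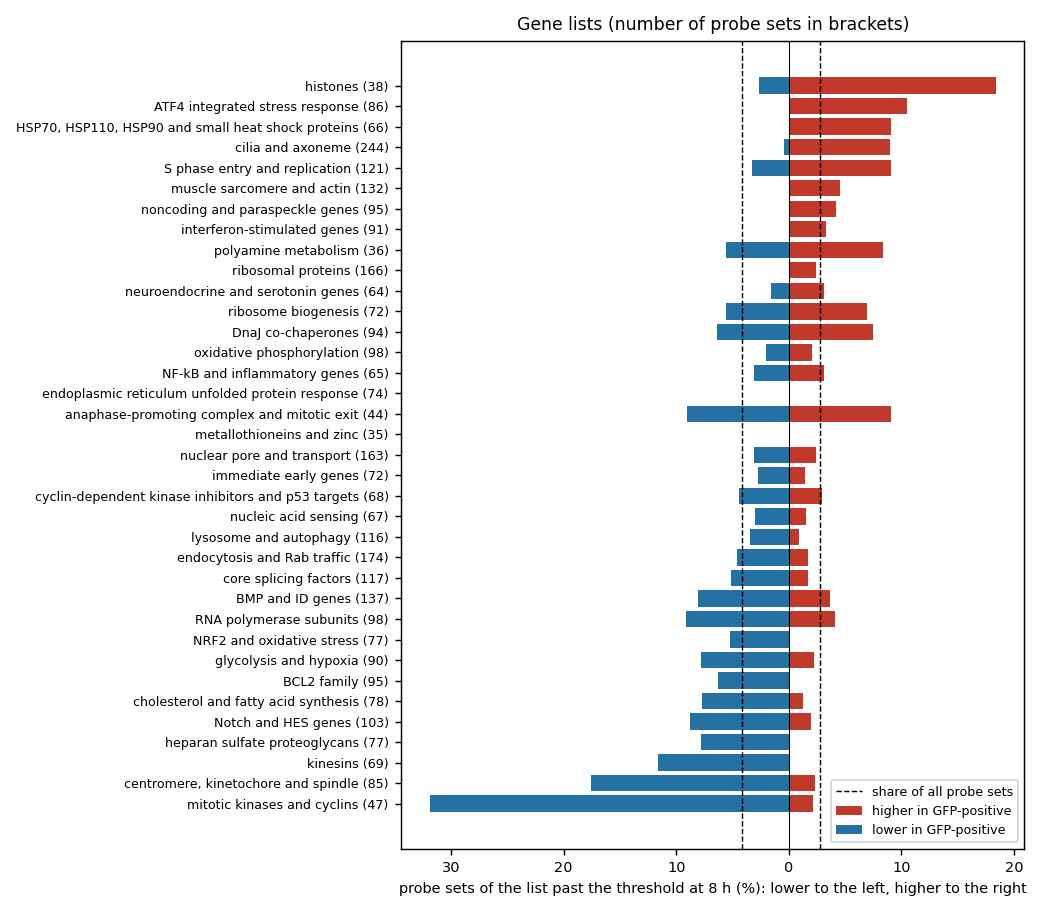
Share of the probe sets of each of 36 gene lists that passed at 8 h (x axis, in percent), lower in GFP-positive cells to the left in blue and higher to the right in red, with the number of probe sets in brackets and dashed lines at the shares of all probe sets (4.14% lower, 2.75% higher). Mitotic kinases and cyclins reach 31.9% lower, and histones reach 18.4% higher.

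Genes of the integrated stress response, which follows phosphorylation of the initiation factor eIF2 and runs through the transcription factor ATF4, rose and did not fall: 9 of 86 probe sets were higher (10.5%) and 0 lower. DDIT4, an inhibitor of the growth kinase mTORC1, was at 10.46, 10.67 and 10.45 log2 units in GFP-positive arrays and at 8.98, 9.10 and 9.02 in GFP-negative arrays. Each population was tight and the gap was over 1 log2 unit, a rise of log2 1.49 (SE 0.18, adjusted p = 0.000169). ATF3, a stress-induced bZIP factor, was at 9.75, 10.51 and 9.91 in GFP-positive arrays and at 8.43, 8.73 and 8.63 in GFP-negative arrays on 202672_s_at. It rose by log2 1.46 (SE 0.24, adjusted p = 0.00187), with replicate 2 highest in both populations, and 1554980_a_at rose by 1.04 (adjusted p = 0.00812). The remaining ATF3 probe set, 1554420_at, was at 0.37 (adjusted p = 0.213). DDIT3, the bZIP factor CHOP, was at 7.73, 8.02 and 7.70 in GFP-positive arrays and at 6.83, 6.81 and 6.45 in GFP-negative arrays (log2 1.12, SE 0.23, adjusted p = 0.00818). CTH, an enzyme of cysteine synthesis, and SESN2, a sestrin that restrains mTORC1, rose on 2 probe sets each, by log2 0.61 to 0.76, and the threonyl-tRNA synthetase gene TARS1 rose on 1 (log2 0.86). Without GFP-positive replicate 3, 7 were higher (1 probe set each of CTH and SESN2 lost the call), and with all 23 arrays 1 was. The ATF4 element (TGATGNAA on either strand) was present in 11 of 34 promoters of this list (32.4%) and in 2.44% of all. Genes of the unfolded protein response had 0 of 74 probe sets past the limma threshold (5 higher and 6 lower at an unadjusted p under 0.05), and 3 higher and 2 lower with the replicate block.

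Heat shock proteins, the chaperones that refold damaged proteins, had 6 of 66 probe sets higher (9.09%, against 2.75% of all) and 0 lower. Their DnaJ partners had 7 of 94 higher (7.45%) and 6 lower (6.38%, against 4.14% of all). The DnaJ counts were 3 and 5 without GFP-positive replicate 2, 4 and 4 with the 6 arrays alone, 0 and 4 with all 23 arrays, and 7 and 11 with the replicate block. HSPA1A, an inducible HSP70, was at 12.52, 12.43 and 12.15 in GFP-positive arrays and at 11.95, 12.02 and 11.47 in GFP-negative arrays. Replicate 3 was lowest in both populations, and the log2 fold change of 0.55 (SE 0.12, adjusted p = 0.0125) was lost with the 6 arrays alone (adjusted p = 0.087) and without GFP-positive replicate 1, GFP-positive replicate 2 or GFP-negative replicate 3. HSPA1A probe set 200799_at was at log2 0.52 and did not pass (adjusted p = 0.0694). HSPA1A and HSPA1B are near-identical, so their probe sets are uncertain. HSPH1, an HSP110 exchange factor of HSP70, rose by log2 0.57 (adjusted p = 0.00545) and 0.72 (adjusted p = 0.0313). The list's count was 2 without GFP-positive replicate 2 or GFP-negative replicate 3, 3 with the 6 arrays alone, 0 with all 23 arrays, 5 without GFP-positive replicate 3, and 3 higher with 3 lower without GFP-positive replicate 1. DNAJB1, which delivers substrates to HSP70, was at 9.61, 9.89 and 9.42 in GFP-positive arrays and at 8.85, 9.03 and 8.63 in GFP-negative arrays. Its probe sets rose by log2 0.80 (SE 0.12, adjusted p = 0.00084) and 0.86 (SE 0.13, adjusted p = 0.00109). Other DnaJ genes fell, among them DNAJC14 (log2 -0.70, adjusted p = 0.00144) and DNAJC18 (-0.51, adjusted p = 0.00207).

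A heat shock element, here GAA, TTC and GAA each 2 bases apart on either strand, is the repeat bound by heat shock factors. It was present in 3 of 25 promoters of the heat shock list, 2 of 33 of the DnaJ list and 0.415% of all. Promoters of CHORDC1 and DNAJB6, genes with a passing higher probe set, are printed because they hold the element before the start, in capitals (RefSeq, GRCh38.p14, chr11:90223050-90223199 on the minus strand and chr7:157336854-157337003 on the plus strand). In CHORDC1 the capitals cover 3 overlapping matches.
CHORDC1: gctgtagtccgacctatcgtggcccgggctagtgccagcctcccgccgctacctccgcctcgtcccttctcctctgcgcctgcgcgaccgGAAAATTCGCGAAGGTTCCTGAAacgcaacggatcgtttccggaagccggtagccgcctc
DNAJB6: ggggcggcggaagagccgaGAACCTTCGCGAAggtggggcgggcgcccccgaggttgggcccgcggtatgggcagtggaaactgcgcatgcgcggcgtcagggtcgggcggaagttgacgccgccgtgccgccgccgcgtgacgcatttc
DNAJB6 rose by log2 0.39 (SE 0.09, adjusted p = 0.0114). CHORDC1 passed on 239436_at and not on its brightest probe set, as given above.

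Few probe sets of innate immune and early response genes passed at 8 h. Of 91 probe sets of interferon-stimulated genes, 3 were higher (3.3%, near the 2.75% of all) and 0 lower. The higher ones were 2 of the exonuclease gene ISG20 (log2 0.53 and 0.72, adjusted p = 0.0176 and 0.0333) and 1 of SP100 (0.37). The first ISG20 call was lost without GFP-positive replicate 3 (adjusted p = 0.0811) or GFP-negative replicate 1, and the second without any one of 4 arrays. The list had 0 passing probe sets with the 6 arrays alone, 1 higher and 1 lower without GFP-negative replicate 1, and 4 higher and 2 lower with the replicate block. IFIT1, an interferon-induced RNA-binding protein, was at 4.56, 4.32 and 4.59 in GFP-positive arrays and at 5.41, 4.66 and 5.06 in GFP-negative arrays, a log2 difference of -0.56 that did not pass (adjusted p = 0.0954, and 0.0211 with the replicate block). Nucleic acid sensing genes had 1 of 67 probe sets higher (1.49%) and 2 lower (2.99%), against 2.75% and 4.14% of all. With the 6 arrays alone 0 of them passed. The adaptor gene MYD88 rose (log2 0.47, adjusted p = 0.0384) and MAVS, the adaptor of RNA sensors, fell on 2 probe sets (log2 -0.41 and -0.51). MAVS probe set 229741_at lost the call without GFP-positive replicate 3 (adjusted p = 0.0745) or any one of 4 other arrays, and 226495_at without GFP-negative replicate 2. NF-kB and inflammatory genes had 2 of 65 probe sets higher and 2 lower (3.08% each), also near the shares of all. NFKBIZ, an atypical inhibitor of NF-kB, rose by log2 0.81 and 0.59 (adjusted p = 0.00137 and 0.00226), while RELA and TNFAIP3 fell by 0.39 and 0.44. CXCL8 was at 0.08 (adjusted p = 0.732) on its brighter probe set and at -0.08 (adjusted p = 0.784) on 202859_x_at. The calls of MYD88, RELA and TNFAIP3 were each lost without any one of 5 arrays. For RELA these included GFP-positive replicate 3 (adjusted p = 0.0935), without which MYD88 and TNFAIP3 still passed (adjusted p = 0.0422 and 0.0195).

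Of 72 probe sets of immediate early genes 1 was higher (1.39%) and 2 lower (2.78%), against 2.75% and 4.14% of all. MYC fell, at 9.70, 9.39 and 9.84 in GFP-positive arrays and 10.42, 10.37 and 10.51 in GFP-negative arrays (log2 -0.79, SE 0.15, adjusted p = 0.00417). SRF was at -0.37 (adjusted p = 0.0337), a call lost without GFP-positive replicate 3 (adjusted p = 0.127) or any one of 3 other arrays. KLF2 was at 0.39 (adjusted p = 0.0406), a call lost with the replicate block (adjusted p = 0.0514) and without GFP-positive replicate 3 (0.06) or any one of 4 other arrays. EGR1, a zinc finger factor induced within minutes of growth signals, was at 6.86, 7.09 and 7.09 in GFP-positive arrays and at 7.89, 7.86 and 7.69 in GFP-negative arrays. Its 3 probe sets lay apart in the same direction (log2 -0.80, -0.76 and -0.74) but did not pass (adjusted p = 0.426, 0.334 and 0.436), whereas with the 6 arrays alone they did (adjusted p = 0.00575, 0.0116 and 0.0278). FOS was at 0.25 (adjusted p = 0.855), and the JUN probe sets between 0.04 and 0.23 did not pass either. In the oxidative stress list 4 of 77 probe sets fell (5.19%, near the 4.14% of all) and 0 rose. Those that fell were MAFG (2 probe sets), MAFK and the exporter gene ABCC1, by 0.41 to 0.54. With the replicate block 3 rose and 4 fell, and the count of lower ones was 2 without GFP-positive replicate 2 and 1 with the 6 arrays alone. Metallothionein and zinc genes had 0 of 35 past the limma threshold (2 higher and 1 lower at an unadjusted p under 0.05), and 1 lower with the replicate block. Cyclin-dependent kinase inhibitors and targets of p53, a factor that large T antigen binds, had 2 of 68 higher (SESN2, 2.94%) and 3 lower (ZMAT3, 4.41%). These shares were near those of all probe sets. The counts were 0 and 2 without GFP-positive replicate 2, and 1 and 2 without GFP-positive replicate 3 or GFP-negative replicate 2. They were 2 and 1 without GFP-negative replicate 3, and 3 and 5 with the replicate block.

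Genes that build heparan sulfate, the cell-surface sugar chain to which polyplexes bind, had 0 of 77 probe sets higher and 6 lower (7.79%, median log2 -0.16). Of all probe sets 4.14% were lower, and 8.77% and 8.29% in the second highest and highest level bins. With quantile normalization 4 of the list were lower and its median was -0.115. With the replicate block 10 were lower, and 3 were without GFP-negative replicate 2, with the 6 arrays alone or with all 23 arrays. GLCE, the epimerase of the chain, was at 5.75, 5.65 and 5.63 in GFP-positive arrays and at 6.67, 6.42 and 7.03 in GFP-negative arrays. It fell by 1.03 (SE 0.16, adjusted p = 0.00135), the populations lying apart. The sulfotransferase gene NDST1 fell by 0.73 (adjusted p = 0.00513) and B4GALT7, of the linker to the core protein, by 0.56 (adjusted p = 0.00672). In endocytosis and Rab traffic 3 of 174 were higher, 2 of them the RAP1A probe sets, and 8 lower (4.6%), close to the 4.14% of all probe sets. The count of lower ones was 2 without GFP-positive replicate 2, 3 without GFP-negative replicate 3, 5 without GFP-positive replicate 3, 2 with the 6 arrays alone and 14 with the replicate block. The early endosome gene RAB5B was at -0.74 (adjusted p = 0.00445). Lysosome and autophagy genes had 1 of 116 higher and 4 lower (3.45%). The count of lower ones was 1 without GFP-positive replicate 3, GFP-negative replicate 2 or GFP-negative replicate 3, 2 without GFP-positive replicate 2 and 1 with the 6 arrays alone. SQSTM1, the autophagy receptor p62, rose (log2 0.39, adjusted p = 0.00772) and WIPI1, of autophagosome formation, fell (log2 -0.56, adjusted p = 0.00379).

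Of 36 polyamine probe sets the 3 that rose (8.33%, against 2.75% of all probe sets) were all of SAT1, the acetyltransferase of polyamine breakdown. It was at 9.32, 9.36 and 9.22 in GFP-positive arrays and at 8.49, 7.86 and 8.29 in GFP-negative arrays on its brightest probe set. These rises were log2 1.09, 1.12 and 0.87 (adjusted p = 0.00338, 0.00203 and 0.00968), and both DHPS probe sets fell by 0.43 and 0.45, though neither passed without GFP-positive replicate 2 or GFP-positive replicate 3, nor with the 6 arrays alone. In cholesterol and fatty acid synthesis 6 of 78 fell (7.69%, against 4.14% of all probe sets) and 1 rose (1.28%). The count that fell was 3 without GFP-positive replicate 2, 2 without GFP-negative replicate 3 and 4 with quantile normalization. It was 3 with the 6 arrays alone and 1 with all 23 arrays. INSIG1, which retains the sterol sensor in the endoplasmic reticulum, fell on 3 probe sets by 0.80, 0.65 and 0.64 (adjusted p = 0.00246, 0.00852 and 0.0112). An IDI1 probe set, 242065_x_at, rose (log2 0.61, adjusted p = 0.00297). In glycolysis and hypoxia 7 of 90 fell (7.78%), among them NDRG1 (log2 -0.61) and the neuronal enolase gene ENO2 (-0.71). The 2 that rose (2.22%, against 2.75% of all) were KDM3A (0.53) and P4HA1 (0.36). The count that fell was 4 without GFP-positive replicate 1, GFP-positive replicate 2, GFP-positive replicate 3 or GFP-negative replicate 3. It was 2 with the 6 arrays alone, and 4 with quantile normalization, where the list's median was -0.016. P4HA1 lost the call without GFP-positive replicate 2, GFP-negative replicate 2 or GFP-negative replicate 3.

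Cilia and axoneme genes had 22 of 244 probe sets higher (9.02%) and 1 lower, the higher ones in 15 of 102 genes. CFAP43, a cilia-associated protein, was at 5.52, 5.41 and 5.73 in GFP-positive arrays and at 3.72, 3.59 and 3.65 in GFP-negative arrays, a rise of log2 1.90 (SE 0.18, adjusted p = 1.94e-05). CFAP70, CFAP53 and CFAP251 rose by log2 1.10, 1.07 and 1.03 on their highest probe sets, and the dynein heavy chain gene DNAH12 by 0.93. Transport genes of the cilium were at 0.37 (IFT172) and 0.50 (IFT74), and RFX3, a transcription factor of ciliated cells, at 0.49. Each of these 3 calls was lost without any one of 4 arrays, which included GFP-positive replicate 3 for IFT74 and RFX3. BBS9 was the gene that fell (log2 -0.43). The count of higher probe sets was 14 without GFP-positive replicate 2, 19 without GFP-positive replicate 3, and 4 with all 23 arrays in the fit. Among muscle sarcomere and actin genes 6 of 132 probe sets rose (4.55%, against 2.75% of all), in 4 of 57 genes, and 0 fell. Beside NEB and ACTA1 these were MYH3, embryonic myosin heavy chain (log2 1.68, SE 0.19, adjusted p = 0.000104), and ACTN2, the alpha-actinin of the Z disc, on 3 probe sets (log2 0.69 to 0.81). In the neuroendocrine list 2 of 64 probe sets rose (3.12%, near the 2.75% of all) and 1 fell (1.56%, against 4.14% of all). Those that rose were of TPH1 and SCG5, a chaperone of prohormone processing (log2 1.67, adjusted p = 0.00378), and INSM1 fell.

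Signalling genes of the BMP and TGF-beta family went both ways, with 5 of 137 probe sets higher (3.65%) and 11 lower (8.03%). The shares of all probe sets were 2.75% and 4.14%. The list's counts were 7 and 18 with the replicate block, and 3 were higher without GFP-positive replicate 2 or GFP-negative replicate 3. The list's median was -0.06. The ligand gene BMP7 fell by 0.68 (adjusted p = 0.000341), the receptor gene TGFBR2 by 0.61 and the antagonist gene NOG by 0.75. The ligand gene TGFB2 was at 0.56 on 228121_at (adjusted p = 0.0142), a call lost without GFP-positive replicate 2, GFP-positive replicate 3 or GFP-negative replicate 3. ID4, an inhibitor of basic helix-loop-helix factors, was at 8.91, 9.57 and 9.12 in GFP-positive arrays and at 7.93, 8.01 and 8.19 in GFP-negative arrays. It rose by log2 1.16 (SE 0.15, adjusted p = 0.00027), as did ID3 (0.61), the inhibitor gene SMAD6 (0.44) and the decoy receptor gene BAMBI (0.84, adjusted p = 0.00143). Notch and HES genes had 2 of 103 higher and 9 lower (8.74%), but only 1 lower without GFP-positive replicate 2, 3 without GFP-positive replicate 3 or GFP-negative replicate 3, 5 without GFP-positive replicate 1 or GFP-negative replicate 2, and 5 with quantile normalization. In the BCL2 family, which governs mitochondrial cell death, 6 of 95 fell (6.32%, against 4.14% of all probe sets) and 0 rose. These included the survival genes BCL2 (log2 -0.83, adjusted p = 0.000761), BCL2L2 (-0.70) and BCL2L1 (-0.52) and the death effector gene BAK1 (-0.48). With the replicate block 2 of the family rose and 6 fell, and with the 6 arrays alone 1 rose and 4 fell. The count that fell was 4 without GFP-positive replicate 1, GFP-positive replicate 3, GFP-negative replicate 2 or GFP-negative replicate 3.

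RNA-processing genes changed in single members. CLK4, a kinase of splicing factors, was at 8.82, 8.67 and 8.83 in GFP-positive arrays and at 7.96, 7.61 and 7.80 in GFP-negative arrays (log2 0.99, SE 0.11, adjusted p = 0.000136), and rose by 0.97 on a second probe set. Of 117 splicing probe sets 2 were higher (1.71%), both of CLK4, and 6 lower (5.13%), among them SRSF1 (log2 -0.57). The shares of all probe sets were 2.75% and 4.14%. With quantile normalization 5 of the list were higher and 3 lower, and 3 were lower without GFP-positive replicate 2 or GFP-negative replicate 2. RNA polymerase subunits and their TAF partners had 4 of 98 higher (4.08%) and 9 lower (9.18%). These counts were 2 and 2 without GFP-positive replicate 2, 2 and 7 without GFP-positive replicate 3, 2 and 5 without GFP-negative replicate 3, 1 and 6 without GFP-negative replicate 2, and 1 and 2 with the 6 arrays alone. The list had TAF6L at -0.99 (adjusted p = 0.00482) and a POLR2F probe set, 232643_at, at 0.97 (adjusted p = 0.00682). Ribosomal protein genes had 4 of 166 higher (2.41%) and 0 lower. Oxidative phosphorylation genes had 2 of 98 higher and 2 lower (2.04% each), or 1 and 0 without GFP-positive replicate 3. Nuclear pore and transport genes had 4 of 163 higher (2.45%) and 5 lower (3.07%). Their counts were 1 and 5 without GFP-positive replicate 3, and 1 and 1 without GFP-negative replicate 2. The shares of these lists were below the 2.75% and 4.14% of all probe sets. Ribosome biogenesis genes had 5 of 72 higher (6.94%) and 4 lower (5.56%), or 2 and 1 without GFP-positive replicate 3. Noncoding and paraspeckle genes had 4 of 95 higher (4.21%) and 0 lower. The higher ones were 2 without GFP-positive replicate 1, GFP-positive replicate 2, GFP-negative replicate 2 or GFP-negative replicate 3. NEAT1, the RNA that builds paraspeckles, was at 9.37, 9.34 and 8.85 in GFP-positive arrays and at 8.39, 7.92 and 8.09 in GFP-negative arrays (log2 1.06, SE 0.27, adjusted p = 0.0235), a call lost without any one of 4 of the 6 arrays.

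The 8 h changes were set beside those of the GFP-positive and GFP-negative arrays of 16 h, which are other arrays and share none with 8 h. At 16 h 2427 probe sets passed (4.44%), 1348 higher (2.47%) and 1079 lower (1.97%). Of the 1501 probe sets higher at 8 h, 91.5% were also positive at 16 h and 721 (48%) passed in that direction. Of the 2266 lower at 8 h, 92.5% were also negative at 16 h and 511 (22.6%) passed. By limma, 0 of either set passed in the opposite direction at 16 h, and 60.7% of all probe sets had the same sign at both times. The 147 probe sets at least 2-fold higher at 8 h were all positive at 16 h, and 125 of them (85%) passed. CENPA stood at -0.69 at 16 h (adjusted p = 0.000221), AURKA at -0.57 (adjusted p = 0.00117), NEB at 2.87 and DDIT4 at 1.23. By the test of the difference between the times itself, 1 probe set passed (0.00183%). This was 231251_at of WIPF2, a regulator of actin assembly, at -0.81 at 8 h and 0.14 at 16 h (difference -0.94, SE 0.12, adjusted p = 0.0438). With the replicate block it did not pass (adjusted p = 0.246), and 0 probe sets did.

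**Figure D5:**
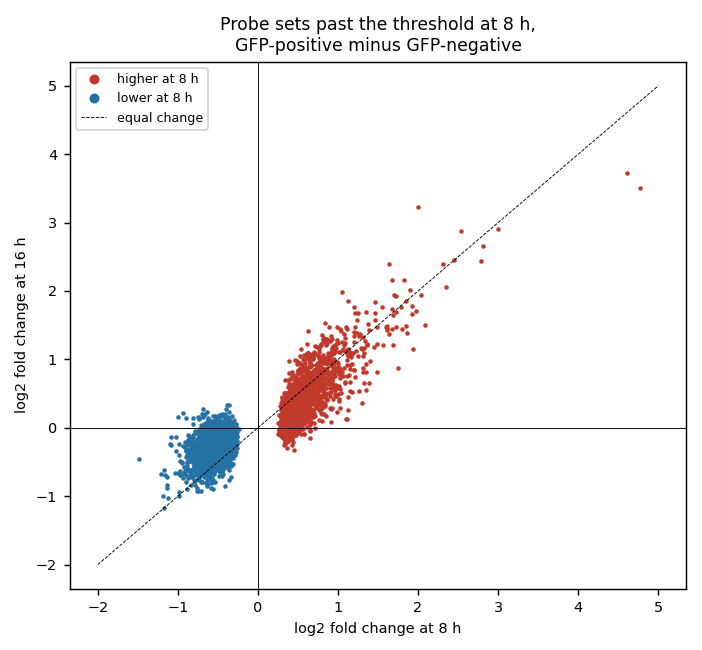
Log2 fold change, GFP-positive minus GFP-negative, at 8 h (x axis) and 16 h (y axis) of the probe sets that passed at 8 h, with the 1501 higher ones in red and the 2266 lower ones in blue and a dashed line where both changes are equal. Most points lie in the quadrants of equal sign, 91.5% of the higher and 92.5% of the lower ones.

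The authors' deposited table of 8 h gives a posterior probability per probe set from a model that is not named. There, 1237 probe sets of the authors' deposited table were above 0.95, a value chosen for this comparison. Of these 1189 (96.1%) passed the limma threshold, which is 31.6% of the 3767 probe sets called here.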

How the data were processed

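The authors deposited one log2 value for each probe set and array, made by RMA in R 2.11.1 per the submitters' processing notes. Arrays of each time appear to have been normalized apart, so only arrays of one time were contrasted. The authors' deposited table of 8 h adds a posterior probability, a score from 0 to 1. Its 8 h means match those computed from the arrays by title. Symbols came from that table and were updated through RefSeq gene names (1847 updated, 1635 kept as given, 207 probe sets named by accession). The depth of an array has no count; the number of arrays limits the precision.

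A model with 1 mean per group was fitted by limma 3.58.1 (lmFit, then eBayes, with two-sided tests, under R 4.3.3) to 17 arrays of 2, 8 and 16 h, with 11 residual degrees of freedom, and p-values were adjusted by Benjamini-Hochberg over all probe sets. The 24 h arrays were left out. Errors are standard errors of that fit. The brightest probe set of a gene has the highest mean over the 6 arrays of 8 h. Members and the 36 gene lists were chosen with earlier results of these data known; lists are described by counts, with no set test. Named are the 15 largest passing changes of each sign without overlap, the 4 smallest p of each list, 8 genes whose probe sets differ most, the 5 smallest adjusted p of each sign for 8 minus 16 h, and 18 fixed genes; other names, such as further passing list members and CDT1 on 2 probe sets, were chosen after their values were seen. Deviations of same-numbered arrays of both populations had correlations of 0.259, 0.24 and 0.325, so the numbers may pair the arrays. The labels do not state pairing, and the main fit does not use it. The fit with the numbers as a block is an alternative, beside other sample sets, scalings, filters, weights and left-out arrays. The fit was tested on simulated data. Promoters were the first RefSeq entry of a symbol. Some list members are not reported here.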

Additional observations from a re-analysis of the deposited data

Results flagged for a closer look

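The change of WIPF2 probe set 231251_at differed between the times: the log2 fold change at 8 h minus that at 16 h was -0.943 (SE 0.124, limma adjusted p = 0.0438). GFP-positive arrays of 8 h read 3.39, 3.37 and 3.24 and GFP-negative ones 4.05, 4.16 and 4.21. At 16 h GFP-positive arrays read 4.57, 4.75 and 4.69 and GFP-negative ones 4.52, 4.51 and 4.57. The difference did not pass with the replicate block (adjusted p = 0.246), and passed with the 12 arrays of 8 and 16 h alone (0.0218), centred arrays (0.0358) and quantile normalization (0.0259). With the lower 40% of levels left out the probe set was not tested.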

How the results depend on the processing

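Of 163 named probe sets that passed, 0 changed direction under the alternatives in which they were tested (87 with the brightest probe set only, 152 with the lower 40% of levels left out, 163 in the rest). Many lost the call: 84 with all 23 arrays, 41 with the 6 arrays alone, 12 to 31 when 1 array was left out, 13 with array weights, 9 with quantile normalization and 10 with the block in the fit of 6 arrays. With the replicate block in the fit of 17 arrays 4 no longer passed, and 5123 probe sets passed in all, 1967 higher and 3156 lower. The block in the fit of the 6 arrays gave 4419. The total of 3767 fell to 1842 with the 6 arrays of 8 h alone (868 higher, 974 lower), to 1166 with all 23 arrays (341 higher, 825 lower) and to 2456 with the brightest probe set of each gene only (830 higher), where fewer probe sets were tested. Leaving out 1 array gave 2025 to 3308 in all, 882 to 1264 higher and 1113 to 2044 lower. The count at least 2-fold higher was 79 with all 23 arrays and 58 with the brightest probe sets only, and that at least 2-fold lower was 9 with the latter and 8 to 42 when 1 array was left out. For 8 h minus 16 h, 1 probe set passed, against 7 with 12 arrays, 0 with the replicate block and 0 with the lower 40% of levels left out. Where no construction of the alternative shows it, the cause was not tested. The small number of arrays limits what can be called.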
